A study of Mus musculus with 7 samples.

Results

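The genes described here are 38 targets and regulators of p53, the transcription factor that responds to DNA damage and other stress, out of 20018 mouse genes named by at least 1 array probe. They were given as a list of gene names and were found on the arrays through the RefSeq accession of each probe. All 38 had a probe, and 37 had a probe that was well above background on 3 or more of the 7 arrays, the condition for testing. Eda2r, which encodes a receptor for ectodysplasin, had 2 probes, neither of them well above background anywhere, and was not tested. The measurements came from single-colour Agilent arrays of dendritic cells grown in culture from sorted common myeloid progenitors of C57BL/6 mice. The 3 knockout arrays came from Gata2(f/f)/ER-Cre mice, which carry a floxed Gata2 gene and a tamoxifen-inducible Cre recombinase. The 4 control arrays came from Gata2(f/f) mice without the Cre. Mice of both genotypes received tamoxifen between day 1 and day 10, and progenitors were sorted on days 20 to 22. The cells were then grown on bone marrow feeder cells of SJL mice with 200 ng/ml FLT3 ligand. The sources used here give no age and do not state that replicates are separate animals. The p-values therefore measure the spread among these arrays alone, which may be technical. Only knockout mice carried the Cre, and the groups lay in different rows of the slide, so Cre, row and group cannot be told apart.

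In unstressed cells p53 is kept low by the ubiquitin ligase Mdm2 and its partner Mdm4. When p53 is stabilised it switches on genes that stop the cell cycle, such as Cdkn1a, genes that favour cell death, such as Bbc3 and Bax, and genes of DNA repair, together with Mdm2 itself, which closes a feedback loop. In blood progenitors this response is known to limit survival after DNA damage.

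p53 binds a DNA element of 2 decamers. Each decamer has a fixed C and a fixed G, so that a full site with adjacent decamers contains the letters CNNGNNNNNNCNNG. Promoter windows from 250 bases before to 50 bases after a transcription start were taken from RefSeq (build GRCm38.p6), and 30 of the 38 genes matched, with 41 windows. Ddb2, Perp, Pmaip1, Rrm2b, Tnfrsf10b, Trp53inp1, Xpc and Zmat3 had no entry. The consensus reads the same on both strands. A full site with these fixed letters and at most 2 mismatches to the p53 consensus was found in 5 of the 41 windows (12.2%), against 0.326% of all 32851 promoter windows. A perfect single decamer, which can be part of a full site, was found in 15 of 41 windows (36.6%), against 8.36% of all windows. These matches describe letters in a short window. The genes were listed as targets and regulators of p53, so an excess over all windows is partly fixed by that choice. Among the 15 windows of genes that rose, 2 held a full site (13.3%) and 3 a perfect single decamer (20.0%). A link between a site and a rise was not tested. The 5 full sites are printed because they set the genes that rose beside genes of the same kind that did not pass the test. Each is written 5′ to 3′ on the gene's strand, with capitals for letters that match the consensus and lower case for mismatches.
Cdkn1a: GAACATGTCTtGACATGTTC
Zfp365: AGACTAGgCTGGGCAAGaCT
Ccng1: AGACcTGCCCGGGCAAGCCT
Ckap2: AGACATGTCCtGACTTGTCa
Gtse1: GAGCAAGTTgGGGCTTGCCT
The Cdkn1a site lies at chr17:29090928-29090947 on the plus strand, in 1 of that gene's 2 promoter windows, and begins 51 bases before the transcription start of that window. The Zfp365 site lies at chr10:67912706-67912725 on the minus strand and begins 63 bases before the start. Those of Ccng1 (chr11:40755462-40755481, minus strand) and Ckap2 (chr8:22186003-22186022, minus strand) begin 195 and 203 bases before it, and that of Gtse1 (chr15:85859945-85859964, plus strand) begins 1 base before it and runs across it. Of these 5 genes, Cdkn1a and Zfp365 rose in the knockout arrays, while Ccng1, Ckap2 and Gtse1 did not pass the test. The 250 bases before the start of these genes that rose are given with the full site in capitals, at chr17:29090729-29090978 for Cdkn1a and chr10:67912663-67912912 for Zfp365.
Cdkn1a: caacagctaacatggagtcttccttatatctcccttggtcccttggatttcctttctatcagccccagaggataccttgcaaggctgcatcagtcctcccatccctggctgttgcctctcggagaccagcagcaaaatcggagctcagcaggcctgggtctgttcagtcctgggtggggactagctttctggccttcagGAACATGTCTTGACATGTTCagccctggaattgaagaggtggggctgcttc
Zfp365: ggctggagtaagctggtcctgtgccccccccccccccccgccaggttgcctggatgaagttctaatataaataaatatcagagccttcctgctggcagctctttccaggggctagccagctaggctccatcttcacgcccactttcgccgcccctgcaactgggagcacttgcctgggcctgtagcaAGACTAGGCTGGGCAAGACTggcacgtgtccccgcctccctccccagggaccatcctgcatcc

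Expression is given as log2 signal relative to the 75th percentile of the same array, and differences as knockout minus control. The share of spots well above background was 61.5% to 67.4% on the knockout arrays and 54.1% to 56.9% on the control arrays. The probe of Gata2, the targeted gene, read 2.93, 3.00 and 3.06 on the knockout arrays, against -0.25, 0.24, 0.36 and 0.34 on the control arrays, so it was brighter in the arrays labelled knockout. A probe in the deleted part should be dimmer there. The labels do not state whether the probe lies in that part, and all directions below follow the arrays as labelled. Markers of dendritic cells were present: all 11 tested of 12 listed, among them Itgax, Flt3, H2-Ab1 and Irf8, were well above background on every array, and none passed the test. Their summed log2 level was 8.28 to 8.52 on the knockout arrays and 8.44 to 8.69 on the control arrays. Markers of other cells moved with the groups. Over all tested genes 1.49% rose and 1.38% fell by the same test. Of 7 tested mast cell and basophil markers 6 fell, with a summed level of 2.89 to 3.38 on the knockout arrays, against 4.18 to 4.89 on the control arrays. Kit, the one that did not pass, was the brightest of them on the knockout arrays, with a difference of -0.20, while the protease genes Prss34 and Cpa3 had differences of -6.94 and -5.02. Of 5 macrophage markers 3 fell (5.23 to 5.60 on the knockout arrays, against 5.68 to 6.06 on the control arrays), and of 7 neutrophil markers 2 fell (5.29 to 5.81, against 6.12 to 6.24). Of 8 T and natural killer cell markers, Trat1, Gzma and Nkg7 rose, with a summed level of 3.72 to 3.90 on the knockout arrays, against 2.09 to 2.38 on the control arrays. The T cell receptor complex genes Cd3e, Cd3d and Cd3g in that list had differences of -0.05, 0.01 and 0.72 and did not pass, Cd3g being well above background on 2 of 4 control arrays. Ncr1 was at background on all 7 arrays. None of the tested B cell, erythroid or stromal markers passed the test (4, 3 and 2 genes). Of 6 measured B cell markers, 5 to 6 were well above background on the knockout arrays, against 1 to 2 on the control arrays. Their summed levels were 3.72 to 4.05 on the knockout arrays and 3.71 to 4.14 on the control arrays. The dimmest signal counted as well above background was -6.911 to -6.212 on the knockout arrays, against -5.595 to -5.324 on the control arrays. Counts of detected markers therefore do not compare the groups on the same floor. The part of these cell types in the results below was not tested, and fewer cells of a type and less RNA per cell cannot be told apart. Whether and how feeder cells were removed before RNA extraction is not stated in the labels.

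Of the 37 tested genes, 12 rose in the knockout arrays and none fell, by limma with a Benjamini-Hochberg adjusted p under 0.05 over 14552 genes. Of the other 25, 4 had an unadjusted limma p under 0.05, all higher. With these 4, the unadjusted p was under 0.05 for 16 of the 37, against 1961 of all 14552 tested genes in either direction. Over all tested genes 1.49% were called higher and 1.38% lower, 2.87% in all. The 12 were Zmat3 among p53 and its feedback genes, Cdkn1a, Plk2 and Ddit4l among genes of arrest and growth control, and Bbc3, Tnfrsf10b, Phlda3 and Trp53inp1 among genes of cell death and survival. Zfp365 was the single repair gene, Psrc1 the single mitotic gene, and Inka2 and Sulf2 came from the remaining group. Each rose at least 2.23-fold, and in each the 3 knockout arrays lay above the 4 control arrays. That was so for 18 of the 37, against 5.78% of all tested genes, and for none in the opposite direction, against 8.07%. The median difference over the 37 was 0.35, against -0.05 over all tested genes. These counts describe genes chosen with earlier results of the same arrays known, in which Ddit4l, Zfp365 and Inka2 stood among the largest changes. Ddit4l passed the filter through the knockout arrays alone, and without it 11 of 36 rose. Plk2 and Inka2 were well above background on 2 of 4 control arrays. The other 34 tested genes were well above background on all 7 arrays, and 9 of these rose when the fit was restricted to such genes.

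**Figure D1:**
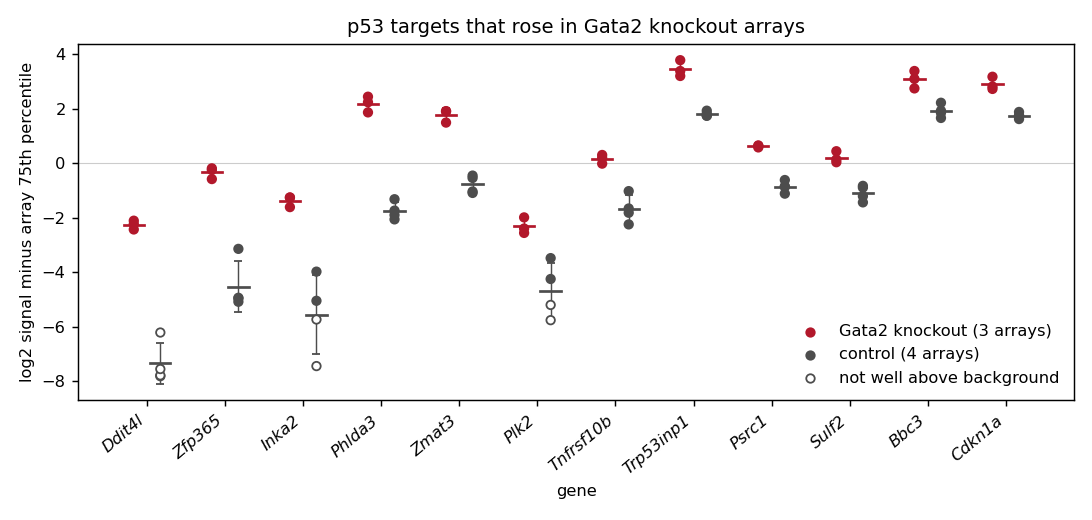
Values of the 12 p53 targets that rose, by gene, as log2 signal minus the array's 75th percentile; each point is 1 array (knockout red, left; control grey, right), open points are not well above background, lines are means and bars are SD. All knockout points lie above all control points of the same gene, and the gap between the lowest knockout and the highest control array ranges from 0.53 for Bbc3 to 3.78 for Ddit4l.

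Trp53, which encodes p53 itself, did not differ detectably at the RNA level. It read 1.30, 2.24 and 1.67 on the knockout arrays, against 1.72, 1.59, 1.98 and 1.69 on the control arrays. The knockout arrays held both the lowest and the highest of the 7 values, and the difference was -0.01 (95% interval -0.52 to 0.51, limma adjusted p = 0.992). Mdm2, the ligase of the feedback loop, read 4.43, 4.11 and 4.16 on the knockout arrays and 3.67, 4.14, 4.19 and 3.73 on the control arrays. The groups overlapped, with a difference of 0.30 (95% interval -0.11 to 0.71). Its partner Mdm4 read -1.85, -1.93 and -2.30 on the knockout arrays and -2.11, -2.79, -2.27 and -2.11 on the control arrays, also overlapping (difference 0.29, 95% interval -0.18 to 0.76). Ccng1, which encodes cyclin G1 and holds a full site in its promoter window, read 3.74, 4.09 and 3.65 on the knockout arrays, against 3.15, 3.62, 3.40 and 3.32 on the control arrays. These groups did not overlap, by a gap of 0.03, but the difference of 0.45 did not pass over all genes (limma adjusted p = 0.269).

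Zmat3, which encodes a zinc finger RNA-binding protein, rose. It read 1.92, 1.50 and 1.91 on the knockout arrays, against -1.08, -0.45, -0.53 and -1.03 on the control arrays. The lowest knockout array lay 1.94 above the highest control, and the rise was 5.85-fold (log2 fold change 2.55 with SE 0.21, adjusted p = 0.000433 by limma). The interval of the Mdm2 difference ends at 0.71, below the interval of Zmat3, which begins at 2.07.

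Among genes of arrest and growth control, 3 of 8 rose and none fell. Cdkn1a, the cyclin-dependent kinase inhibitor p21, read 2.82, 3.18 and 2.73 on the knockout arrays, against 1.89, 1.76, 1.75 and 1.63 on the control arrays. The groups were separated by 0.85, with a rise of 2.23-fold (log2 fold change 1.16 with SE 0.15, adjusted p = 0.00496 by limma). Ddit4l, a relative of the mTOR inhibitor Ddit4, read -2.22, -2.10 and -2.42 on the knockout arrays, against -6.21, -7.81, -7.78 and -7.55 on the control arrays. None of the control values was well above background, so the gene has only a bound there. Against the higher of the control value and each control array's dimmest signal counted as well above background, Ddit4l was at least 9.59-fold higher in knockout arrays, and against a floor common to all arrays at least 8.42-fold. With normexp background correction, which also changes the knockout values, its log2 fold change was 2.88. Its adjusted p by limma was 9.74e-06 with values raised to each array's own floor, 7.47e-05 with the common floor and 0.000235 without a floor. Floors draw the control values together, and the gene entered the test through the knockout arrays alone. These p-values therefore add no support for the rise. Plk2, a polo-like kinase of centriole duplication, read -2.55, -1.98 and -2.39 on the knockout arrays, against -5.75, -4.24, -3.48 and -5.19 on the control arrays. The control arrays spread over more than 2 log2 units, and its rise of 5.13-fold passed narrowly (log2 fold change 2.36 with SE 0.49, adjusted p = 0.0482 by limma). With normexp background correction the log2 fold change of Plk2 was 1.61. The Plk2 call was lost without any single array except control replicate 3 (adjusted p from 0.0628 to 0.154), and over all alternatives its adjusted p ran from 0.0123 to 0.154.

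The other 5 genes of this group did not pass. Sesn2 and Sesn1 encode sestrins, which restrain mTOR complex 1. Sesn2 read 2.73, 2.13 and 2.11 on the knockout arrays, against 1.75, 1.76, 1.62 and 1.42 on the control arrays. These groups did not overlap, but its difference of 0.69 missed the threshold (95% interval 0.26 to 1.11, limma adjusted p = 0.128). Sesn1 overlapped, with a difference of 0.09 (95% interval -0.22 to 0.41). Gadd45a, a stress sensor protein gene, had a difference of 0.00 (95% interval -0.46 to 0.46), the kinase gene Plk3 of 0.14, and the antiproliferative gene Btg2 of -0.21 (95% interval -0.54 to 0.11).

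Of 10 tested genes of cell death and survival, 4 rose and none fell. Phlda3, whose product competes with the survival kinase Akt for membrane lipids, read 2.24, 1.87 and 2.45 on the knockout arrays, against -2.05, -1.31, -1.89 and -1.73 on the control arrays. The gap between the groups was 3.19, and the rise of 15.3-fold ranked 8th of all tested genes by p (log2 fold change 3.94 with SE 0.21, adjusted p = 0.000117 by limma). Tnfrsf10b, the mouse receptor for the death ligand TRAIL, read 0.21, 0.31 and -0.01 on the knockout arrays, against -1.81, -1.02, -1.65 and -2.24 on the control arrays. It rose 3.60-fold (log2 fold change 1.85 with SE 0.27, adjusted p = 0.00851 by limma). Trp53inp1, a nuclear protein that aids p53-dependent death, read 3.39, 3.79 and 3.21 on the knockout arrays, against 1.83, 1.75, 1.93 and 1.75 on the control arrays. Its control arrays lay within 0.19 of each other, and it rose 3.13-fold (log2 fold change 1.65 with SE 0.16, adjusted p = 0.00117 by limma).

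Bbc3 encodes PUMA, a BH3-only protein that triggers mitochondrial death. It read 3.39, 2.75 and 3.10 on the knockout arrays, against 1.67, 2.23, 1.93 and 1.85 on the control arrays. The rise was 2.24-fold (log2 fold change 1.16 with SE 0.19, adjusted p = 0.0178 by limma), and its call was lost without any one of knockout replicates 1 and 3 and control replicates 3 and 4 (adjusted p from 0.05004 to 0.0824; from 0.00263 to 0.189 over all alternatives). The other mitochondrial death genes of the list did not pass. Bax read 4.29, 4.22 and 4.31 on the knockout arrays, against 4.21, 4.23, 4.40 and 4.20 on the control arrays. That is a difference of 0.02, and its 95% interval of -0.25 to 0.29 lies below that of Bbc3, which begins at 0.71. Pmaip1, which encodes the BH3-only protein NOXA, read 3.68, 4.14 and 3.66 on the knockout arrays, against 4.06, 4.26, 4.14 and 3.96 on the control arrays (difference -0.28, 95% interval -0.65 to 0.09). The death receptor gene Fas read -0.96, -1.30 and -1.34 on the knockout arrays, against -1.68, -1.12, -1.15 and -1.22 on the control arrays, which overlap (difference 0.09, 95% interval -0.32 to 0.51). The differences of Aen, Ei24 and Perp were 0.35, 0.26 and 0.07.

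**Figure D2:**
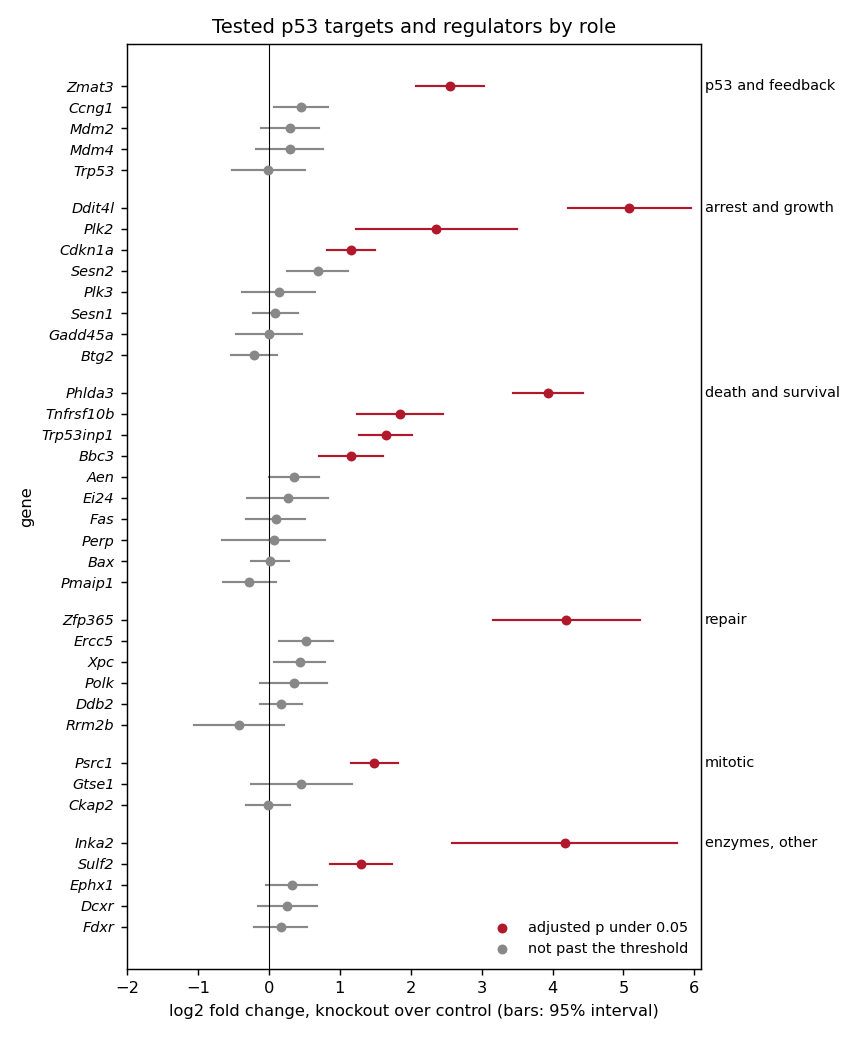
Log2 fold change, knockout over control, of the 37 tested p53 targets and regulators by role; points are estimates, bars are 95% intervals of the limma fit, and red marks an adjusted p under 0.05. The 12 that rose lie between 1.16 and 5.08, with 5.08 as the fitted value for Ddit4l, whose controls were at background, and the other 25 between -0.42 and 0.69.

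Of 6 repair genes, Zfp365 rose. Its human counterpart ZNF365 is known for keeping the genome stable, and the gene carries the full site shown above. It read -0.58, -0.18 and -0.24 on the knockout arrays, against -5.08, -3.14, -4.93 and -4.95 on the control arrays. Control replicate 2 stood above the other controls and still lay 2.56 below the lowest knockout array, and the rise was 18.3-fold (log2 fold change 4.19 with SE 0.45, adjusted p = 0.00202 by limma). With normexp background correction the log2 fold change of Zfp365 was 3.43. Genes of nucleotide excision repair did not pass. The lesion recognition gene Xpc had a difference of 0.43 (95% interval 0.07 to 0.80), the endonuclease gene Ercc5 of 0.53 (95% interval 0.15 to 0.91) and the recognition gene Ddb2 of 0.17 (95% interval -0.13 to 0.47). For Xpc and Ercc5 the knockout arrays lay above the control arrays, but their adjusted p was 0.263 and 0.187 by limma. Polk, a translesion polymerase gene, had a difference of 0.35, and Rrm2b, a ribonucleotide reductase subunit gene, of -0.42 (95% interval -1.06 to 0.21), the lowest of all tested members.

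The mitotic genes of the list divided. Psrc1, which encodes a microtubule-associated protein, read 0.59, 0.66 and 0.64 on the knockout arrays, against -0.86, -1.11, -0.84 and -0.61 on the control arrays. It rose 2.80-fold with the knockout arrays within 0.07 of each other (log2 fold change 1.49 with SE 0.14, adjusted p = 0.00115 by limma). Gtse1, a G2 phase protein that restrains p53, had a difference of 0.46 (95% interval -0.26 to 1.17). Ckap2, a spindle protein gene, had a difference of -0.01 (95% interval -0.32 to 0.29). Both carry a full site in a promoter window.

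In the remaining group Inka2 and Sulf2 rose. Inka2, an inhibitor of the kinase PAK4, read -1.60, -1.25 and -1.25 on the knockout arrays, against -5.73, -3.97, -5.04 and -7.44 on the control arrays. The lowest of these control values, on replicate 4, and that of replicate 1 were not well above background, and the fitted rise was 18.1-fold (log2 fold change 4.17 with SE 0.69, adjusted p = 0.0165 by limma). Inka2 lost its call without knockout replicate 1, 2 or 3 (adjusted p from 0.0573 to 0.0724; from 0.000441 to 0.0724 over all alternatives), and its log2 fold change was 2.83 to 4.70 over the alternatives, with 2.83 under normexp correction and 3.54 without control replicate 4. Sulf2, an extracellular sulfatase gene, read 0.04, 0.45 and 0.14 on the knockout arrays, against -1.43, -0.89, -1.20 and -0.82 on the control arrays, a rise of 2.46-fold (log2 fold change 1.30 with SE 0.19, adjusted p = 0.00871 by limma). The metabolic enzyme genes Fdxr, Dcxr and Ephx1 had differences of 0.17, 0.26 and 0.32 and did not pass.

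For 5 of the genes a second probe was also tested, and for 4 of them, all but Polk, the size of the change differed between the probes. The probe pairs were compared after their values were seen. The second probe of Cdkn1a was designed on transcript NM_001111099, while the probe used above was designed on NM_007669. The NM_001111099 probe read -0.80, -0.91 and -0.62 on the knockout arrays, against -4.93, -4.81, -4.64 and -4.22 on the control arrays. It was well above background on all 7 arrays and its log2 fold change was 3.88 (SE 0.19), a 14.7-fold rise, against 1.16 for the NM_007669 probe. Within arrays the second Cdkn1a probe minus the one used averaged -3.685 in the knockout group and -6.406 in the control group. The knockout average was 2.72 higher (exact permutation test, two-sided, p = 0.0286, the minimum with 35 splits, and 0.0357 adjusted over 5 genes). The full site shown above lies before 1 of 2 Cdkn1a starts, and the files do not say which start each probe's transcript uses.

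Ephx1, which encodes microsomal epoxide hydrolase, had 2 probes designed on the same transcript. The one used above overlapped between groups, with -0.73, -0.41 and -0.55 on the knockout arrays and -0.78, -1.05, -1.06 and -0.63 on the control arrays. The other read -0.90, -0.79 and -0.75 on the knockout arrays, against -2.27, -2.22, -2.16 and -2.45 on the control arrays, a 2.75-fold rise (log2 fold change 1.46 with SE 0.13, adjusted p = 0.000822 by limma over 18810 named probes). Whether Ephx1 counts among the genes that rose therefore depends on the probe. With the probe of largest interquartile range or the mean of its probes it passed (adjusted p = 0.000951 and 0.00543; from 0.000951 to 0.805 over all alternatives). The second probe of Trp53inp1 had a smaller difference than the one used, 0.69 against 1.65, and did not pass (limma adjusted p = 0.110 over named probes). It was also much dimmer, with means of -3.97 on the knockout arrays and -4.66 on the control arrays. The Trp53inp1 probe used had means of 3.46 and 1.82. Aen and Polk had differences of 0.55 and 0.64 with the second probe, against 0.35 and 0.35 with the one used, and none passed. The second Polk probe was well above background on 4 arrays. The difference between probes had the smallest possible exact permutation p of 0.0286 for Aen, Ephx1 and Trp53inp1 as for Cdkn1a, and 0.857 for Polk. Inka2 and Rrm2b also had a second probe, which was well above background on 2 arrays and on none, and that of Mdm4 was so on 1.

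**Figure D3:**
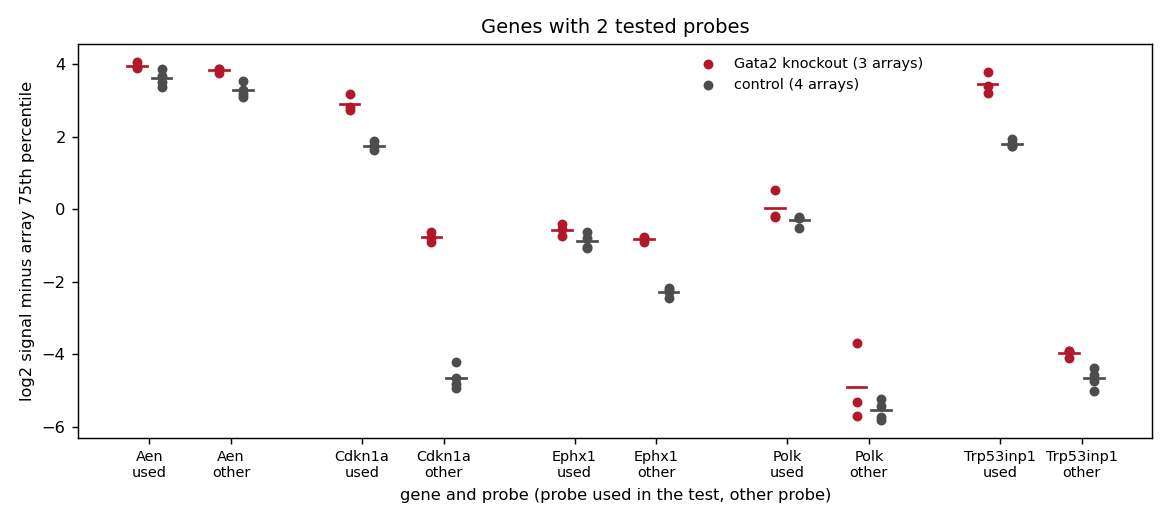
Log2 signal minus the array's 75th percentile for the 5 genes with 2 tested probes; for each gene the probe used in the test stands left of the other probe, knockout arrays are red and control arrays grey, and lines are means. The second Cdkn1a probe has a mean of -0.77 on the knockout arrays and -4.65 on the control arrays, a wider separation than the probe used, at 2.91 and 1.76.

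Other genes of the pathway were counted in 4 lists, beside the 1.49% of all genes called higher and 1.38% called lower. Of 20 tested damage kinases and p53 modifiers, none passed, with a median difference of 0.06. Their lowest adjusted p was 0.131, for Trp53bp1, which encodes a protein of DNA break sites, with a difference of 0.48, followed in size by Pml, a nuclear body gene, at 0.34. Of this list Cdkn2a, the source of the p53 activator ARF, was at background on all 7 arrays. Trp53rk had no named probe. Chek1, named here after its values were seen, entered the fit with 3 arrays, since its spot was an outlier on the other 4, and its difference of 0.22 rests on knockout replicate 2 and control replicates 1 and 4.

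Of 16 tested further p53 targets, 1 rose and 3 fell, with a median of -0.12. Ak1, adenylate kinase 1, rose 5.81-fold, with 0.53, 0.86 and 0.59 on the knockout arrays, against -2.01, -1.36, -2.21 and -1.94 on the control arrays (log2 fold change 2.54, limma adjusted p = 0.000459). Thbs1, which encodes the angiogenesis inhibitor thrombospondin-1, fell. It read -3.24, -2.26 and -3.31 on the knockout arrays, against 3.95, 3.82, 4.31 and 3.58 on the control arrays (log2 fold change -6.85). Gdf15, a stress cytokine of the TGF-beta family, also fell, with -3.34, -4.35 and -3.49 on the knockout arrays, against -1.99, -1.36, -2.03 and -1.84 on the control arrays (log2 fold change -1.92, limma adjusted p = 0.00818). Dram1, a lysosomal regulator of autophagy, had a log2 fold change of -0.73 (limma adjusted p = 0.0482). The Dram1 call was lost without any single array except control replicate 2 (adjusted p from 0.0590 to 0.219; from 0.00629 to 0.310 over all alternatives). Thbs1 and Gdf15 thus differed in direction from the 12 listed targets that rose.

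Of 18 tested genes of the BCL-2 family, its partners and caspases, none passed, with a median of 0.00. The largest difference was 0.84, for Bok, a relative of Bax that was well above background on 1 of 4 control arrays. Of 14 cell cycle genes that p53 is known to repress, none passed, and the median was 0.02. The mitotic kinase gene Plk1 had a difference of 0.25 and the cyclin-dependent kinase gene Cdk1 of -0.36.

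**Figure D4:**
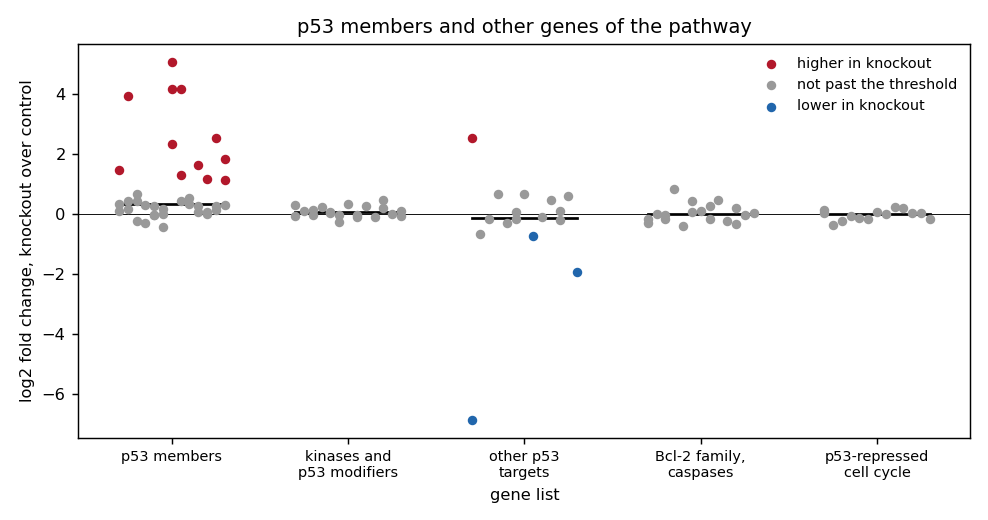
Log2 fold change, knockout over control, of each tested gene in the p53 list and 4 other lists of the pathway; each point is a gene, black lines are medians, and colour shows the call at an adjusted p under 0.05. The p53 list has 12 red points and a median of 0.35, the other p53 targets have 1 red and 3 blue points and a median of -0.12, and the kinase, BCL-2 family and cell cycle lists have no coloured point.

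The 12 genes that rose did so on each knockout array, and the arrays did not rank alike. Replicate 2 held the highest value among the knockout arrays for 9 of them, replicate 1 for 2 and replicate 3 for 1. Over these 12 genes the SD among knockout arrays was 0.04 to 0.32, and among control arrays 0.09 to 1.45. The median level of the 12 was 0.40, 0.55 and 0.39 on knockout replicates 1 to 3, against -1.62, -1.06, -1.43 and -1.38 on control replicates 1 to 4. Of the 25 genes that did not pass, 20 had a difference above 0, as had 42.1% of all tested genes, and 19 had overlapping groups. In the other 6 all knockout arrays lay above all control arrays. Over all tested genes, those called included, that was so for 5.78%, and the reverse for 8.07%. The upper end of the 95% interval was under 1, a 2-fold rise, for 23 of these 25, and at or over it for Sesn2 and Gtse1. These intervals are those of the probe used for each gene. Ephx1 is among the 23, while its second probe had a log2 fold change of 1.46.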

How the data were processed

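The authors deposited scanner files of spot intensity; per the file headers these came from Agilent Feature Extraction, version 10.7.3.1. The deposited series table holds log2 values that a comparison with the scanner files showed to be centred per probe, and it served as an alternative. From the processed intensity, log2 values were formed, the 75th percentile of the array's non-control spots was subtracted, outlier spots were dropped and repeated spots averaged. Testing required a probe to be well above background on 3 or more arrays, and 34133 of 55681 probes were. All probes were looked up by RefSeq accession in a gene table of assembly GRCm38.p6, and 26413 (47.4%) matched. The design foresaw naming also by gene name and normexp on the mean signal, but the files as used here had neither column, so the median signal was used. A gene was read from its tested probe of highest mean signal. Groups were compared with limma 3.58.1 in R 4.3.3 (lmFit and eBayes), with Benjamini-Hochberg adjustment over 14552 genes, and the fit was tested on simulated data. The lower bound for a gene below background in controls sets the mean of the knockout arrays against the mean, over control arrays, of whichever was higher, the array's dimmest signal counted as well above background or the probe's own. The number of arrays limits the precision.

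Members, lists and tests were chosen with earlier results of these data known. By the rule for named genes, all members are accounted for, array values are given in full for members that passed and for 8 central genes, and up to 4 genes each way of each other list are named, or up to 2 where none passed. One gene that this rule takes is not reported here. The array values of Sesn2 and of the genes with 2 probes, and the comparison of probes, were added after their values were seen. The main fit did not pair arrays by replicate number, and whether same-numbered arrays were prepared together is not known. Slide and scan were the same for all arrays. Alternatives covered background correction, scaling, the series table, filters, floors, outlier spots, the variance model, the probe rule, the threshold, leaving out each array and a replicate block.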

Additional observations from a re-analysis of the deposited data

Results flagged for a closer look

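In 7 of 42 genes examined, 1 of the 4 control arrays stood apart from the other 3, by a gap past Dixon's critical value, where chance gives about 1 in 20. Among genes that rose, Ddit4l read -6.205 on control replicate 1, against -7.806 to -7.545 on the other controls, with none well above background. Zfp365 read -3.136 on control replicate 2, against -5.076 to -4.93 on the others. Among genes that did not pass, control replicate 2 stood apart for Btg2 (3.637, others 3.291 to 3.337) and for Plk3 (-0.597, others -0.992 to -0.986). Control replicate 3 stood apart for Bax (4.397, others 4.201 to 4.234) and for Perp (-4.29, others -3.984 to -3.942). Control replicate 1 stood apart for Polk (-0.526, others -0.229 to -0.222).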

How the results depend on the processing

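Of the p53 list, 12 genes were called higher and the median log2 fold change was 0.35. The count was 8 to 11 with 1 array left out, lowest without knockout replicate 1 or 3, and 9 to 13 under the other settings. Of the 37 genes, 36 were tested without a knockout array. With signal required on all arrays 34 were tested, and with signal on 2 arrays of each group 36. Part of a lower count is thus genes that left the test. The median was 0.34 to 0.41 with 1 array left out. Zmat3, Tnfrsf10b, Phlda3, Trp53inp1, Zfp365, Psrc1 and Sulf2 were called under all alternatives run at the 0.05 threshold. Ddit4l was called under each in which it was tested. It was not tested when any 1 knockout array was left out, nor under filters asking for signal on all arrays or in each group. Only the knockout arrays carried Ddit4l through the filter, so its calls add no support. None of the list was called lower, except 1 without a filter on dim probes, which was Eda2r (log2 fold change -1.56, limma adjusted p = 0.0267), a gene not above background on any array. Over all genes, 217 higher and 201 lower calls became 365 and 2483 without a filter, 380 and 374 with array weights, 108 and 96 at an adjusted p under 0.01 and, for lower calls, 311 with each array's own floor. With 1 array left out they were 88 to 225 higher and 105 to 178 lower, with 88 and 105 without knockout replicate 3, 133 lower without control replicate 3, and without knockout replicate 1 a higher count at 49.3% of that with all arrays. The replicate block gave 86 and 95 calls, and 9 of the list. With it the calls of Plk2, Bbc3, Cdkn1a, Dram1 and Gdf15 were lost (limma adjusted p = 0.107, 0.189, 0.0883, 0.310 and 0.108). Same-numbered arrays had deviations correlated at -0.1, -0.172 and -0.051. So few arrays cannot show whether same-numbered arrays were prepared together, and the sample titles give only a replicate number. The Plk2 call was also lost with quantile normalization, a floor common to all arrays and the probe chosen by interquartile range (adjusted p = 0.0566, 0.0827 and 0.0555), and that of Dram1 with median centring, that floor and that probe (adjusted p = 0.0800, 0.0529 and 0.0602).

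Differences near 0 that never passed changed sign. Gadd45a was -0.0036 with normexp, -0.0025 with quantile normalization, -0.0049 with the series table, -0.20 with array weights and -0.012 with the block. Trp53 was 0.0202 with quantile normalization and 0.0611 with median centring. Ckap2 was 0.0022, 0.0546 and 0.0427 with quantile normalization, median centring and the block. Perp was -0.0679 with array weights, and Bax -0.0033 with the block. With 1 array left out the ranges were -0.26 to 0.21 for Trp53, -0.11 to 0.15 for Gadd45a, -0.0666 to 0.385 for Plk3, -0.0337 to 0.166 for Fas, -0.338 to 0.415 for Perp, -0.0033 to 0.062 for Bax and -0.0829 to 0.0427 for Ckap2. The causes were not tested. Naming by RefSeq accession alone was not run as an alternative, since it is the naming used. Control arrays had fewer spots above background, which limits Ddit4l, Plk2 and Inka2.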
